A study of Homo sapiens with 6 samples.

Results

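The 10 genes described here encode the cell-surface entry point of insulin and insulin-like growth factor (IGF) signalling and the proteins that hold IGFs in the extracellular space. They are the receptors INSR, IGF1R and IGF2R, the docking proteins IRS1 and IRS2, the PI3-kinase regulatory subunit PIK3R1, and the binding proteins IGFBP1, IGFBP2, IGFBP3 and IGFBP4. They were taken by symbol from a table of 37822 genes. All 10 had a row, and 9 had enough counts to be tested among 14253 genes. IGFBP2 did not.

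The libraries came from Huh7, an established human hepatocellular carcinoma cell line grown in medium with fetal bovine serum. Every culture had been infected with lentivirus made in HEK293T cells, left on the cells for 24 h. In the control group the virus carried FLAG and the cells are labelled WT (3 libraries), and in the other group it carried VPS72, labelled as overexpression (3 libraries). The sources used here do not give whether infected cells were selected or cloned, or whether insulin was added. VPS72 belongs to the chromatin complexes SRCAP and TIP60, which handle the histone variant H2A.Z. The study asked how raised VPS72 acts on lipid synthesis through ATF3, mTORC1 and SREBP1, and insulin and IGF receptors are a main input to mTORC1.

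Insulin and IGFs bind receptor tyrosine kinases that phosphorylate IRS proteins. Phosphorylated IRS proteins recruit PI3-kinase through its regulatory subunit, AKT is activated, and AKT relieves the TSC brake on mTORC1 and keeps FOXO transcription factors out of the nucleus. In liver, FOXO factors raise transcription of IRS2, INSR and IGFBP1 when insulin is low, so these transcripts are also readouts of the pathway. IGF2R, the cation-independent mannose 6-phosphate receptor, carries no kinase: it takes IGF2 to lysosomes for destruction and sorts lysosomal enzymes.

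Total counts were 21345279 to 29091824 per library. VPS72 itself had 27483 to 33086 counts where it was overexpressed and 511 to 686 in FLAG libraries, as the labels have it. Of 8 hepatocyte markers, 7 rose in the VPS72 libraries by edgeR's quasi-likelihood test with Benjamini-Hochberg adjustment. By the same test 0.421% of all tested genes rose. The summed level of the 8 was 18864.5 to 19677 CPM (counts scaled to library size) in FLAG against 21302 to 22147 CPM in VPS72 libraries. APOB, AFP and ALB were abundant, at 8300, 4464 and 3239 CPM in FLAG libraries. With the abundance trend removed 27 genes rose in place of 60, and the part of abundance in the marker values was not tested. None of the 8 was at 0. Summed levels were 9.91 to 11.3 CPM in control libraries and 10.1 to 10.6 CPM with VPS72 for 5 fibroblast markers, and 2.61 to 4.55 CPM and 3.98 to 4.94 CPM for 3 endothelial markers. For 4 immune markers the sums were 10.6 to 12.4 CPM and 13.4 to 14.3 CPM, most of it LYZ, with 1 count of PTPRC in all libraries together. For 3 markers of HEK293T cells the sums were at most 0.139 CPM, and NEFL was at 0. Whether replicates were separate cultures is not stated, and p-values therefore describe the spread among these libraries, which may be technical.

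Promoter sequence was matched by symbol for 9 of the 10 genes (RefSeq, GRCh38.p14), and not for IGFBP1. The 3 shown are the 250 bases before the RefSeq start of the member with the lowest fold change, the member with the highest and the most abundant member, each 5′ to 3′ on the strand of its gene. Sequence just after the RefSeq start was found in a GENCODE 29 transcript of IRS2 and of IGF2R, and in none of INSR. The INSR window thus rests on the RefSeq start. Capitals mark a FOXO-type insulin response core (CAAAACA on either strand) in IRS2, at chr13:109786584-109786833 on the minus strand. They mark the GC box (GGGCGG on either strand, neighbours overlapping) in INSR, at chr19:7294415-7294664 on the minus strand, and a palindromic E-box (TCACGTGA) in IGF2R, at chr6:159968832-159969081 on the plus strand.
IRS2: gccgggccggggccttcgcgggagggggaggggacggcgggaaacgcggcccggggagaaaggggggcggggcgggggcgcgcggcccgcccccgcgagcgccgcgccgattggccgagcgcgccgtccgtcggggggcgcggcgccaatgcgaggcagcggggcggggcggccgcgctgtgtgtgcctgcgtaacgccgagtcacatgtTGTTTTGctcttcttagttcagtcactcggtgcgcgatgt
INSR: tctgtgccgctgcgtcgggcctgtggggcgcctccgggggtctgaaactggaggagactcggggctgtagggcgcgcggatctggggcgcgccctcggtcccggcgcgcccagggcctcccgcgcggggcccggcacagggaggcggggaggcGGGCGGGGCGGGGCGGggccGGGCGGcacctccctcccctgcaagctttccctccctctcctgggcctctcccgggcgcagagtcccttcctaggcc
IGF2R: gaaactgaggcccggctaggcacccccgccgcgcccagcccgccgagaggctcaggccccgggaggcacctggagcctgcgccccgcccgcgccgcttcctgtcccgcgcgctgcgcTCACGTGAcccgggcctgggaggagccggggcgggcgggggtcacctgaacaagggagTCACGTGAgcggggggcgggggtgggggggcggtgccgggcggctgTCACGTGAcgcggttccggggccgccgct

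CAAAACA was present once in IRS2, with its first base 40 bases before the start, and in 4.3% of 35116 promoter windows of the same length. No window of the other 8 matched members held it. The IGF2R window held 3 copies of TCACGTGA, where 0.854% of all windows held any and 0.0114% held 3 or more. The INSR window held 4 GC boxes, where 42.6% of all windows held at least 1 and 13.9% held 3 or more. Of the other matched members, IGF2R held 6, IRS2 5, IRS1 4, IGF1R and IGFBP3 2 and IGFBP4 1. The PIK3R1 windows held 0 to 5 and those of IGFBP2 0 or 1. TATAAA was found in the window of IGFBP4 and of no other member, against 10.7% of all windows. GC content was 71.6% to 81.2% in the windows of INSR, IGF1R, IGF2R, IRS1, IRS2, IGFBP3 and IGFBP4, each with 1 window, where all windows averaged 57.2%. The windows of PIK3R1 had 81.6%, 60.0%, 39.6% and 40.8%, and those of IGFBP2 had 56.8%, 69.2% and 56.4%. These are matches of letters, and no binding was measured here.

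None of the 9 tested members passed the test between VPS72 and FLAG libraries (0 higher, 0 lower and 9 not past an adjusted p of 0.05; edgeR quasi-likelihood, Benjamini-Hochberg over all 14253 genes), where 0.617% of all tested genes passed, 0.421% higher and 0.196% lower. At an unadjusted p under 0.05 there were 3 of 9, INSR higher and IRS2 and IGFBP3 lower, against 11.5% of all tested genes, 6.03% higher and 5.51% lower. By DESeq2, 5 of the 9 had an adjusted p and 0 passed, and by limma-voom 0 passed. The median log2 fold change over the 9 was -0.00, as it was over all genes tested. In 2 of the 9, INSR and PIK3R1, the groups did not overlap, both higher, where 17.2% of all tested genes did not, 8.76% higher and 8.47% lower. Protein levels and phosphorylation were not measured.

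**Figure D1:**
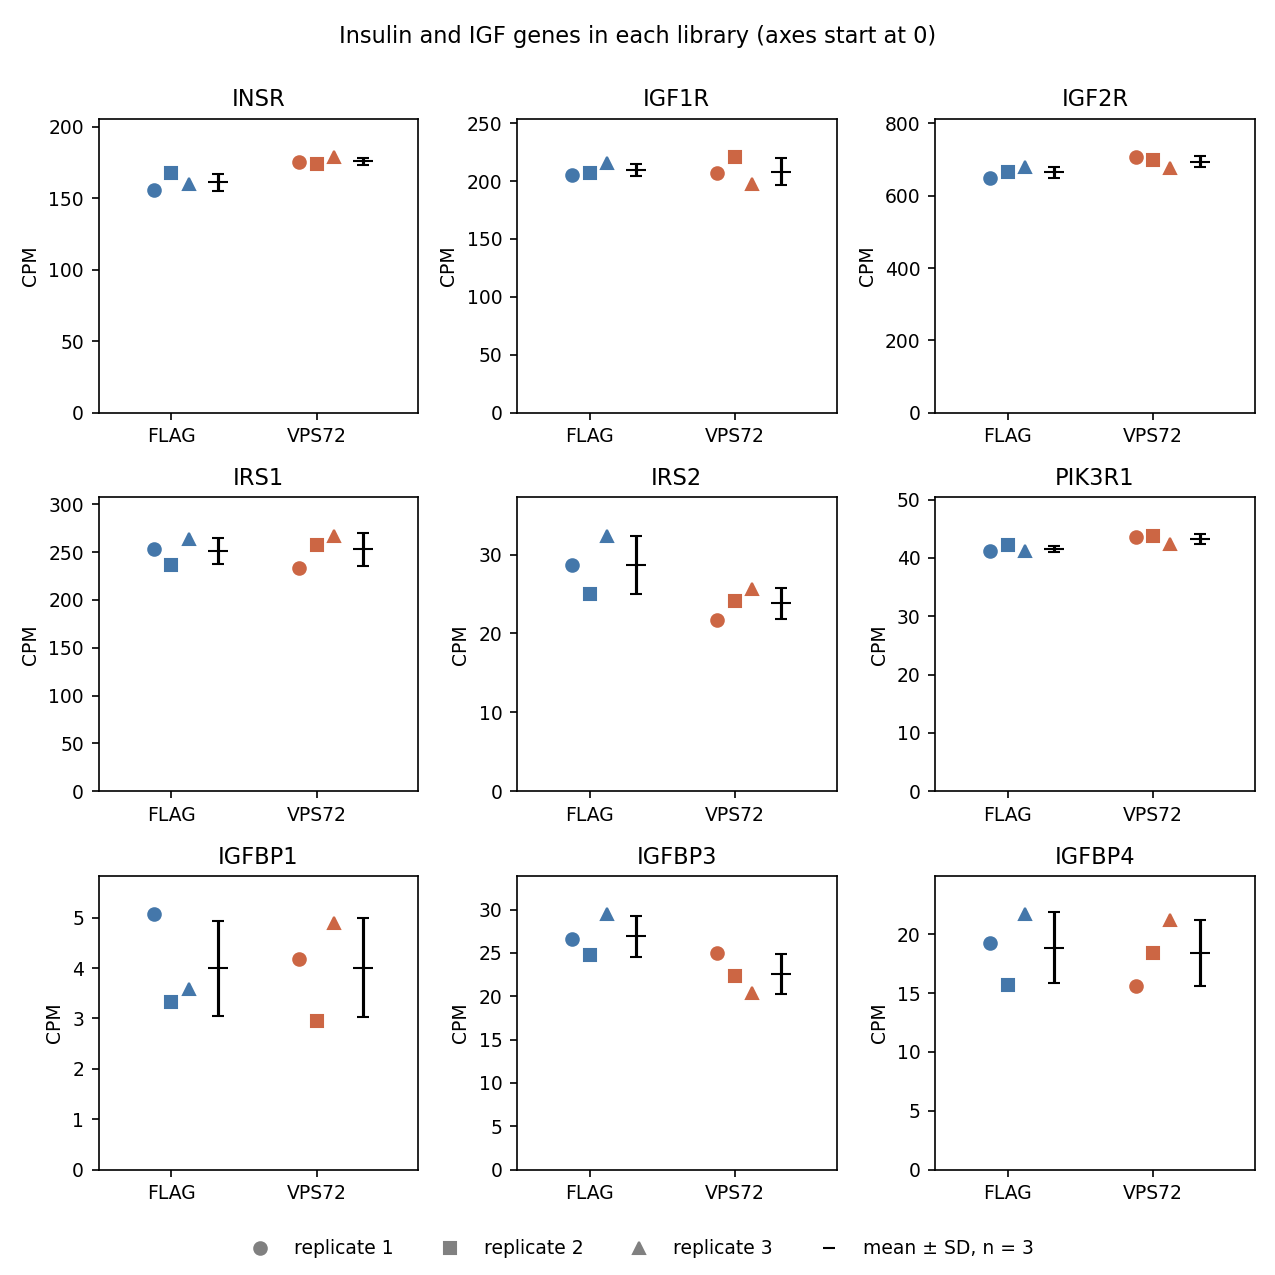
Level of each of the 9 detected members (y axis, CPM, from 0) in the 3 FLAG and 3 VPS72 libraries, with marker shape giving the replicate number and the bar the mean ± SD. INSR lies at 156 to 168 CPM in control libraries and 174 to 179 CPM with VPS72, and in 7 of the 9 panels the groups overlap.

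The members spanned a wide range of levels. Divided by the length of the longest coding transcript (GENCODE 29), IGF2R stood highest in the FLAG libraries at 47.4 ± 1.07 CPM per kilobase (SD, n = 3), followed by IRS1 at 25.9 ± 1.37. INSR at 18.0 ± 0.66 and IGF1R at 17.1 ± 0.44 CPM per kilobase came next, and their ranges overlapped. By median transcript length the gap between these receptors was wider, at 23.6 and 17.4 CPM per kilobase. Below them lay the secreted binding proteins IGFBP3 (11.2 ± 0.99 CPM per kilobase) and IGFBP4 (8.57 ± 1.38), whose ranges did not overlap.

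IRS2, at 3.53 ± 0.45 CPM per kilobase, was far below IRS1. IGFBP1, the binding protein that liver secretes when insulin is low, was lowest of the detected members at 2.42 ± 0.57 CPM per kilobase. PIK3R1 had 5.93 ± 0.08 CPM per kilobase by its longest transcript but 15.8 by the median length of its 5 coding transcripts, which moved it from rank 7 to rank 5 among the 10. The other members kept their order relative to each other with the median length. By the longest transcript, INSR (19.4 to 19.9 CPM per kilobase) and IGF1R (16.1 to 18.0) did not overlap in the VPS72 libraries. By median transcript length their means there were 25.7 and 17.3 CPM per kilobase. In the FLAG libraries, whether the ranges of INSR and IGF1R overlapped depended on the length used. In the VPS72 libraries they did not overlap by either length. Neither gene passed between the groups.

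**Figure D2:**
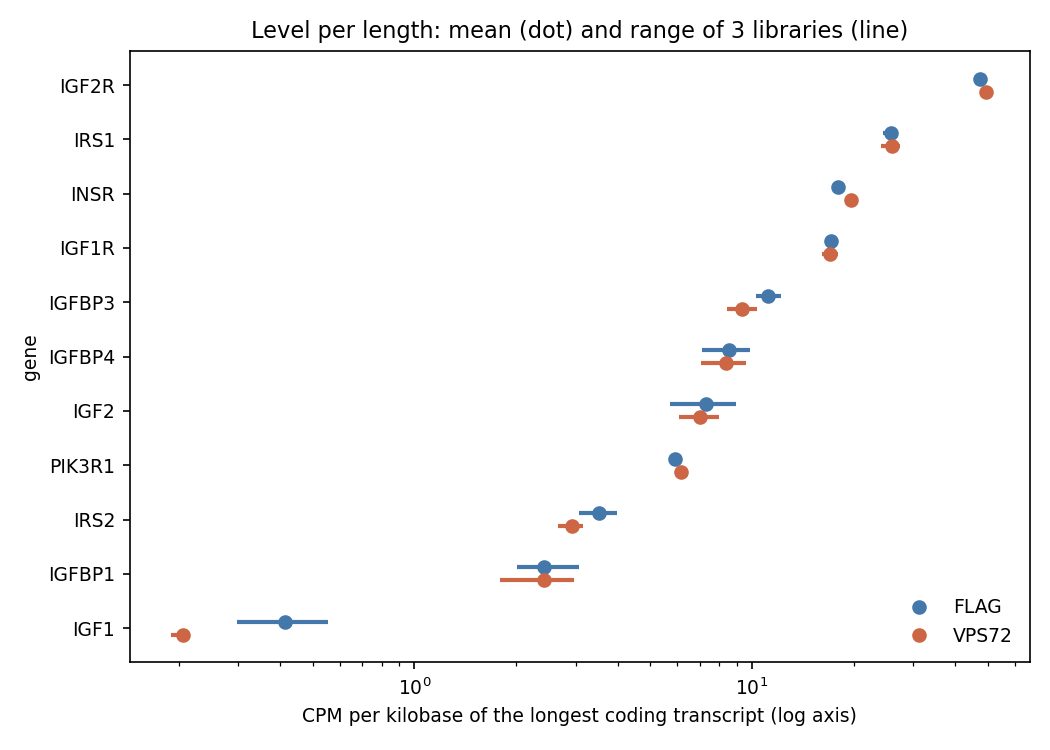
Level per kilobase of transcript (x axis, log scale, CPM per kilobase) of the detected members and the ligands IGF1 and IGF2, with the mean as a dot and the range of 3 libraries as a line. IGF2R is highest at 47.4 CPM per kilobase in FLAG libraries and IGF1 is lowest at 0.413 by its longest transcript, or 4.08 by its median transcript length.

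Among the receptors, INSR had the smallest p. The insulin receptor was at 156, 168 and 160.0 CPM in FLAG replicates 1 to 3, and the VPS72 replicates had 175, 174 and 179 CPM in that order. Every VPS72 library was above every FLAG library. In RNA from whole cultures, more cells with a transcript and more of it per cell cannot be told apart. The difference was 9.06% (95% interval 2.61% to 15.9%; log2 fold change 0.13 ± 0.04, SE), higher in 3 of 3 libraries, and did not pass over all genes (edgeR, Benjamini-Hochberg adjusted p = 0.219). Across the alternatives its adjusted p ran from 0.0792 with DESeq2 to 0.562 without FLAG replicate 1, and its log2 fold change from 0.09 to 0.16. The hepatocyte markers given above moved in the same direction in the same libraries, and their part in this value was not tested.

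IGF1R, the receptor for IGF1 and IGF2, was at 205.5, 207 and 216 CPM in FLAG and 207, 221 and 197 CPM in VPS72 libraries. The groups overlapped throughout, with the highest and the lowest of the 6 values both in VPS72 libraries. Its difference was -0.57% (95% interval -6.9% to 6.19%; edgeR, Benjamini-Hochberg adjusted p = 0.974). IGF2R was at 649.6, 667 and 679.6 CPM in FLAG and 706, 699 and 677 CPM in VPS72 libraries. FLAG replicate 3 and VPS72 replicate 3 crossed, and the other VPS72 libraries lay above all FLAG libraries. The IGF2R difference was 4.34% (95% interval -0.293% to 9.18%; edgeR, Benjamini-Hochberg adjusted p = 0.473). Its log2 fold change of 0.06 was 0.03 when scaled by library size only and 0.0084 after the abundance trend was removed. For IGF1R and IGF2R the intervals left out a change of 10% in either direction.

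The genes whose levels followed INSR most closely over the 6 libraries, among 10416 genes with a mean of at least 5 CPM, were DPY19L4 (r = 0.987), NAP1L4 (r = 0.984) and CTNNA1 (r = 0.984). CTNNA1 encodes the adherens junction protein alpha-catenin and NAP1L4 a histone chaperone. None of the 3 passed the test (edgeR, Benjamini-Hochberg adjusted p = 0.409, 0.64 and 0.424). INSR was picked for its smallest p between the groups, and r was taken over both groups together. A difference between the groups that a gene shares with INSR therefore raises r. These values cannot show whether the genes vary together within a group. The 6 points also share their library depth and scaling, and 241 genes had r above 0.9.

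The docking proteins differed in their values. IRS1, the more abundant, was at 254, 237 and 263 CPM in FLAG and 234, 257 and 267 CPM in VPS72 libraries, a difference of 0.59% (95% interval -6.64% to 8.38%; edgeR, Benjamini-Hochberg adjusted p = 0.977). The lowest and the highest IRS1 values were both in VPS72 libraries. IRS2, the docking protein that FOXO factors induce in liver, was at 28.7, 25.0 and 32.4 CPM in FLAG and 21.7, 24.1 and 25.6 CPM in VPS72 libraries. Only FLAG replicate 2 and VPS72 replicate 3 crossed. The IRS2 difference was -17.0% (95% interval -28.3% to -4.00%; log2 fold change -0.27 ± 0.10, SE), below the FLAG mean in 3 of 3 VPS72 libraries, and did not pass (edgeR, Benjamini-Hochberg adjusted p = 0.285). Its log2 fold change was -0.18 without FLAG replicate 3 and -0.36 without FLAG replicate 2, and its adjusted p ranged from 0.12 to 0.59 over the alternatives.

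Within groups, IRS1 and IRS2 had the same order of libraries. Each was lowest in FLAG replicate 2 and VPS72 replicate 1 and highest in replicate 3 of both groups. IGFBP4 and IGF2 had the same order, and 3.75% of all tested genes had it. Transcript GC content was 58.7% for IRS2, 62.5% for IGFBP4 and 60.4% for IGF2, above 83.1%, 92.5% and 87.9% of tested genes, and 50.7% for IRS1. The 2794 tested genes with the highest GC (57.6% to 74.4%) had a median log2 deviation from the group mean of 0.01, -0.07 and 0.07 in FLAG replicates 1 to 3, and the VPS72 replicates had -0.05, 0.06 and 0.01 in that order. The part of GC content in the order of these genes was not tested, and after removal of the GC and length trend IRS2 had a log2 fold change of -0.26 (edgeR, Benjamini-Hochberg adjusted p = 0.162).

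The ratio of IRS2 to IRS1 counts inside a library needs no scaling. It was 0.113, 0.106 and 0.123 in FLAG replicates 1 to 3, and the VPS72 replicates had 0.0926, 0.0938 and 0.0960 in that order. The groups did not overlap, and the spread was 0.00871 (SD) in FLAG and 0.00172 in VPS72 libraries. The ratio differed by -17.2% (2-sided exact permutation p = 0.1, the smallest that 3 against 3 can give; Benjamini-Hochberg adjusted p = 0.3 over the 6 ratios computed, by exact permutation). The 6 ratios were chosen after the values of the genes were seen.

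In the other 5 ratios the groups overlapped. INSR to IGF1R was 0.770 ± 0.035 in FLAG and 0.846 ± 0.057 in VPS72 libraries (SD, n = 3 per group; exact permutation p = 0.2), the libraries labelled replicate 2 having crossed. IGF2R to IGF1R was 3.18 ± 0.035 against 3.34 ± 0.15 (exact permutation p = 0.2, n = 3 per group). Both ratios set another receptor against IGF1R, so they share its values. For PIK3R1 to PIK3CA, the regulatory against the catalytic subunit of PI3-kinase, the ratio was 0.719 ± 0.027 and 0.743 ± 0.0086 (exact permutation p = 0.3, n = 3 per group). PIK3CA overlaps KCNMB3 on the opposite strand, so its counts may include reads of that gene.

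**Figure D3:**
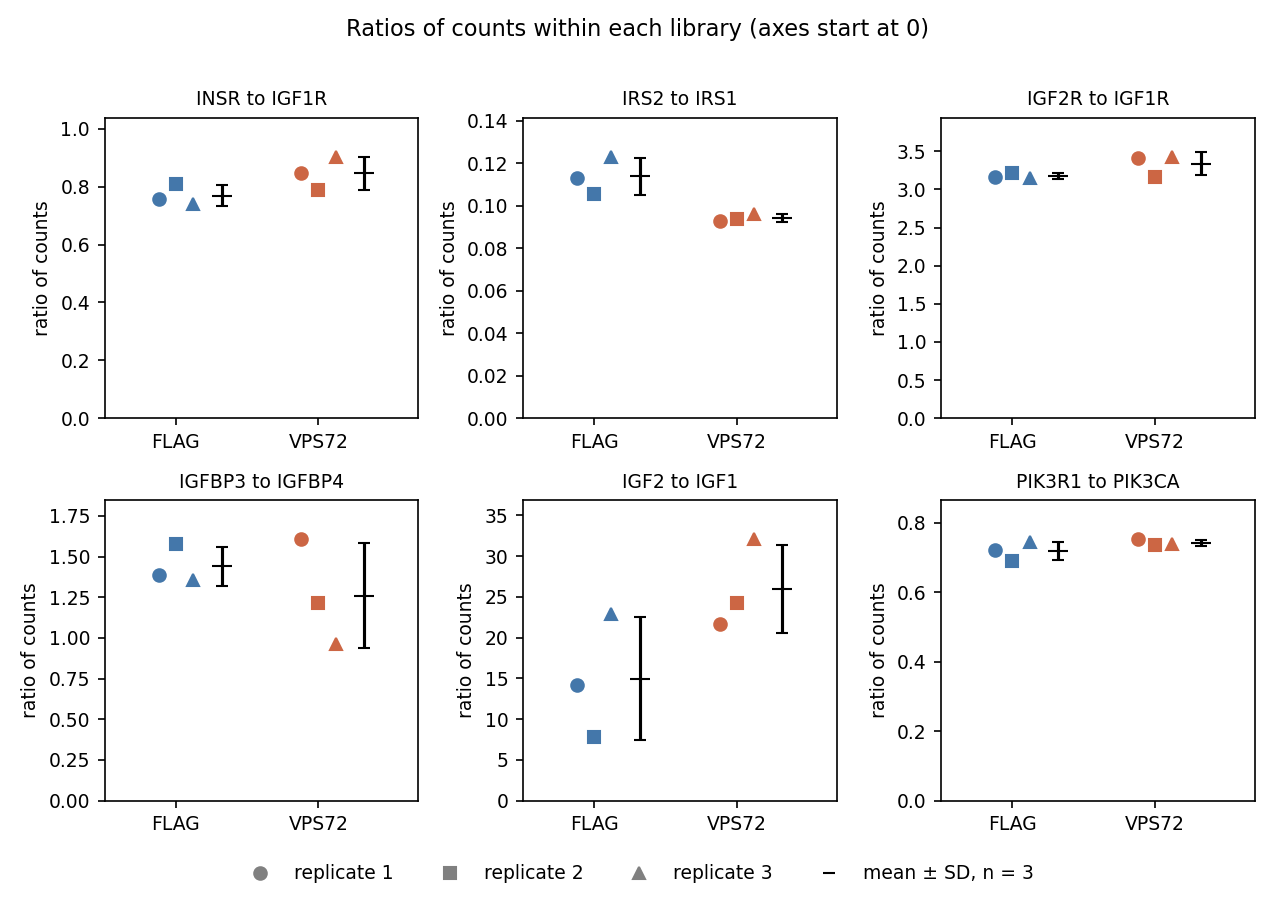
Ratio of the counts of 2 genes within each library (y axes from 0, no unit) in FLAG and VPS72 libraries, with marker shape giving the replicate number and the bar the mean ± SD. IRS2 to IRS1 is the ratio whose groups do not overlap, at 0.106 to 0.123 in control libraries and 0.0926 to 0.0960 with VPS72.

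PIK3R1, which encodes the p85-alpha family of regulatory subunits that link IRS proteins to PI3-kinase, was at 41.2, 42.2 and 41.3 CPM in FLAG and 43.6, 43.8 and 42.3 CPM in VPS72 libraries. The groups did not overlap but nearly touched. The difference was 4.12% (95% interval -4.62% to 13.7%; edgeR, Benjamini-Hochberg adjusted p = 0.785). Its replicate spread in FLAG, a coefficient of variation of 1.35%, was below the 3.15% that counting alone gives at its mean count.

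Of the binding proteins, IGFBP3 had the smallest p. IGFBP3, the main carrier of IGFs in blood, was at 26.6, 24.7 and 29.5 CPM in FLAG and 25.0, 22.4 and 20.4 CPM in VPS72 libraries. FLAG replicate 2 and VPS72 replicate 1 crossed. The difference was -15.9% (95% interval -27.0% to -3.24%; log2 fold change -0.25 ± 0.10, SE), below the FLAG mean in 3 of 3 libraries, and did not pass (edgeR, Benjamini-Hochberg adjusted p = 0.304, and 0.172 to 0.581 over the alternatives).

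IGFBP4, which binds IGFs and mostly inhibits them, was at 19.2, 15.7 and 21.7 CPM in FLAG and 15.6, 18.4 and 21.2 CPM in VPS72 libraries. Its difference was -2.52% (95% interval -19.3% to 17.8%; edgeR, Benjamini-Hochberg adjusted p = 0.956). The ranges of the groups nearly coincided. IGFBP1, whose transcription insulin represses in liver, had 77 to 130 counts per FLAG library and 78 to 120 per VPS72 library, or 5.07, 3.34 and 3.58 CPM and 4.17, 2.95 and 4.90 CPM. Its difference was -0.07% (95% interval -28.6% to 39.9%; edgeR, Benjamini-Hochberg adjusted p = 0.999). The interval was wide at this depth and spread, and changes inside it remain possible.

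IGFBP1 varied more between libraries of a group than any other tested member, with a coefficient of variation of 23.4% in FLAG and 24.5% in VPS72 libraries, where counting alone gives 10.1%. IGFBP3 is the next protein-coding gene to IGFBP1 on the reference assembly (GRCh38.p14). IGFBP3 had a coefficient of variation of 8.83% in FLAG and 10.4% in VPS72 libraries. The libraries with the lowest and the highest level differed between these neighbours in both groups, except that FLAG replicate 2 was lowest for each. IGFBP2, a binding protein abundant in fetal liver, had 0 counts in all 6 libraries, which allows a level of up to 0.103 to 0.141 CPM per library (3 counts of the total, for counting error only). Of the binding proteins outside the 10 genes, IGFBP5 had 2 counts and IGFBP7 39 counts over all libraries together.

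**Figure D4:**
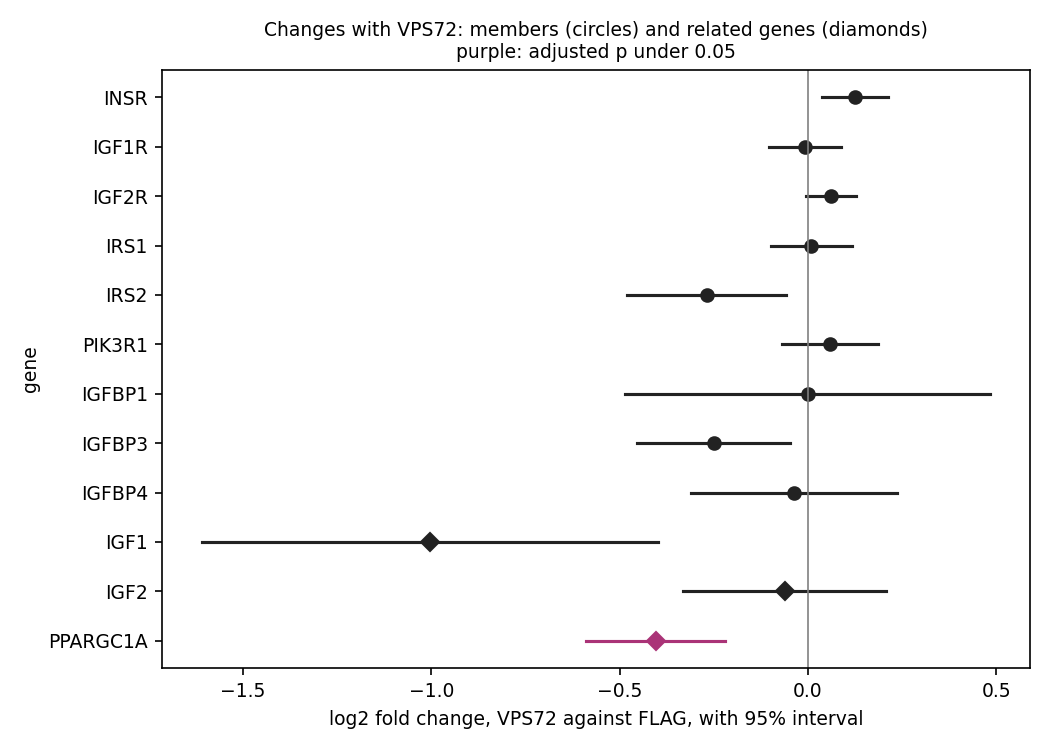
Log2 fold change of VPS72 against FLAG libraries (x axis) with its 95% interval (line) for the 9 tested members (circles) and for IGF1, IGF2 and PPARGC1A (diamonds), purple where the adjusted p is under 0.05. The members lie between -0.27 for IRS2 and 0.13 for INSR, and PPARGC1A at -0.40 is the purple point.

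The ligands were read from a list of the remaining pathway genes. INS had 0 counts in all libraries. IGF2, the fetal growth factor of liver, was at 40.3, 31.9 and 50.1 CPM in FLAG and 33.9, 38.5 and 44.7 CPM in VPS72 libraries, overlapping throughout (difference -4.17%, 95% interval -20.5% to 15.5%; edgeR, Benjamini-Hochberg adjusted p = 0.915). IGF1, the growth factor that adult liver secretes in response to growth hormone, was barely present, with 73, 104 and 47 counts in FLAG and 45, 42 and 33 counts in VPS72 libraries. In CPM this was 2.85, 4.08 and 2.19 against 1.56, 1.59 and 1.39, without overlap.

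The IGF1 difference was -50.1% (95% interval -67.2% to -24.1%), lower in 3 of 3 libraries, and did not pass (edgeR, Benjamini-Hochberg adjusted p = 0.142). Without a filter on low counts the same test gave 0.046, and over the alternatives that gave one it ran from 0.046 to 0.36. HELLPAR, a long non-coding RNA annotated on the opposite strand across IGF1, was at 366.6 ± 28.2 CPM in FLAG and 355.5 ± 10.9 CPM in VPS72 libraries (SD, n = 3), with a log2 fold change of -0.04 ± 0.05. The sources used here do not state if counting used strand, so reads of IGF1 and HELLPAR may not have been told apart. The IGF2 to IGF1 ratio ranged from 7.83 to 22.9 in control libraries and from 21.7 to 32.1 with VPS72.

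The remaining pathway lists held 62 genes, of which 49 were tested, 0 rose, 1 fell and 48 did not pass (edgeR, Benjamini-Hochberg), with a median log2 fold change of -0.01. By the same test 0.617% of all tested genes passed, 0.421% higher and 0.196% lower. At an unadjusted p under 0.05 there were 9, 3 higher and 6 lower, against 11.5% of all tested genes. Of 11 tested receptor-proximal genes 0 passed. GAB1, a docking protein for PI3-kinase and SHP2, had a log2 fold change of 0.15 ± 0.05, GRB2, the adaptor to RAS, 0.10 ± 0.04, and PTPN1, a phosphatase that switches the insulin receptor off, 0.10 ± 0.05. PTPN1 was at 127, 148 and 133 CPM in VPS72 replicates 1 to 3, and its log2 fold change was 0.04 without replicate 2 and 0.15 without replicate 1. SOCS3, a cytokine-induced inhibitor of insulin signalling, had -0.34 ± 0.14, at 7.45 ± 0.18 CPM in FLAG and 5.87 ± 0.20 CPM in VPS72 libraries (SD, n = 3), without overlap. Their adjusted p by edgeR with Benjamini-Hochberg adjustment ran from 0.272 for GAB1 to 0.496 for PTPN1.

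Of 16 tested genes of the PI3-kinase and AKT arm 0 passed, with a median of -0.00. PIK3IP1, an inhibitor of PI3-kinase, was at 3.31, 2.94 and 2.84 CPM in FLAG and 1.11, 1.59 and 1.94 CPM in VPS72 libraries, without overlap (log2 fold change -0.98 ± 0.27, SE; edgeR, Benjamini-Hochberg adjusted p = 0.139, and 0.0597 to 0.428 over the alternatives). PDPK1, the kinase that activates AKT, had a log2 fold change of -0.06 ± 0.05, which was -0.02 without FLAG replicate 1 and -0.04 without VPS72 replicate 2, and AKT1 of 0.06 ± 0.05. Of 4 tested IGF carriers, inhibitors and proteases 0 passed: STC2, an inhibitor of the protease that cuts IGFBP4, had -0.18 ± 0.12 and that protease, PAPPA, 0.03 ± 0.06. IGFBP6 (0.38 ± 0.38) and PAPPA2 (-0.59 ± 0.59) had 148 and 91 counts over all libraries together. Leaving out single libraries moved PAPPA2 between -1.04 (VPS72 replicate 1) and -0.07 (FLAG replicate 3), with -0.90 for FLAG replicate 2 and -0.17 for VPS72 replicate 3. STC2 moved to -0.11 and -0.10 without FLAG replicate 2 and VPS72 replicate 1, and to -0.28 without FLAG replicate 3 or VPS72 replicate 2. The 3 IGF2 mRNA-binding proteins also did not pass, with IGF2BP3 at 0.10 ± 0.04, IGF2BP1 at 0.03 ± 0.03 and IGF2BP2 at -0.04 ± 0.05.

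The single gene that passed came from the FOXO list, where 13 of 17 were tested, 0 rose, 1 fell and 12 did not pass, with a median of -0.03. Over all tested genes, 0.421% rose and 0.196% fell past the threshold. PPARGC1A, the coactivator PGC-1alpha of gluconeogenesis and mitochondrial genes, was at 28.9, 30.6 and 25.8 CPM in FLAG and 21.6, 20.4 and 22.6 CPM in VPS72 libraries. It fell by 24.4% (95% interval -33.5% to -14.1%; edgeR, Benjamini-Hochberg adjusted p = 0.0489), close to the threshold. By the same test its adjusted p was 0.224, 0.123 and 0.0461 when FLAG replicates 1, 2 and 3 were left out in turn, and 0.146, 0.189 and 0.0975 for VPS72 replicates 1, 2 and 3. The call was also lost with a replicate block (0.13) and after the abundance trend was removed (0.0708), at log2 fold changes of -0.40 and -0.39. The call held by limma-voom (0.0414). By edgeR it also held by library size only (0.037), without a filter on low counts (0.00465) and after removing the GC and length trend (0.015). DESeq2 gave it no adjusted p, at a log2 fold change of -0.40 ± 0.10 (SE).

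Of the 13 tested genes of the FOXO list, which holds FOXO factors and FOXO targets, 6 had positive and 7 had negative log2 fold changes. At an unadjusted p under 0.05 by edgeR there were 3, 0 higher and 3 lower. Over all tested genes the share was 11.5%, 6.03% higher and 5.51% lower. The factor FOXO4 was at 0.37 ± 0.27, and the targets SESN1 at 0.18 ± 0.14, BCL6 at 0.09 ± 0.08 and ERBB3 at 0.06 ± 0.04 (SE). KLF15 was at -0.26 ± 0.12, RICTOR at -0.07 ± 0.04, CCNG2 at -0.04 ± 0.11 and SESN3 at 0.04 ± 0.05 (SE). None of these passed the threshold. TXNIP, a glucose-induced inhibitor of thioredoxin, and CITED2, a transcriptional coregulator, are named after their values were seen. TXNIP was at 36.1 to 39.5 CPM in control libraries and 27.2 to 32.3 CPM with VPS72, a difference of -21.2% just outside the threshold (edgeR, Benjamini-Hochberg adjusted p = 0.0586), with an adjusted p of 0.00536 by DESeq2 and 0.046 by limma-voom, and a range of 0.00536 to 0.245 over all alternatives. CITED2 had a log2 fold change of -0.15 ± 0.06 (edgeR, Benjamini-Hochberg adjusted p = 0.327), which was -0.08 without VPS72 replicate 1, and its adjusted p ranged from 0.0309 without a filter on low counts to 0.712. Of the FOXO targets among the members, INSR was at 0.13, IRS2 at -0.27 and IGFBP1 at -0.00, none past the threshold. The IGFBP1 interval of -28.6% to 39.9% leaves its direction undetermined. The part of FOXO factors in these values was not tested. FOXO1 itself had a log2 fold change of 0.06 ± 0.08 and FOXO3 of -0.03 ± 0.05, and the gluconeogenic FOXO targets G6PC and PCK1 had 5 and 11 counts over all libraries together.

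**Figure D5:**
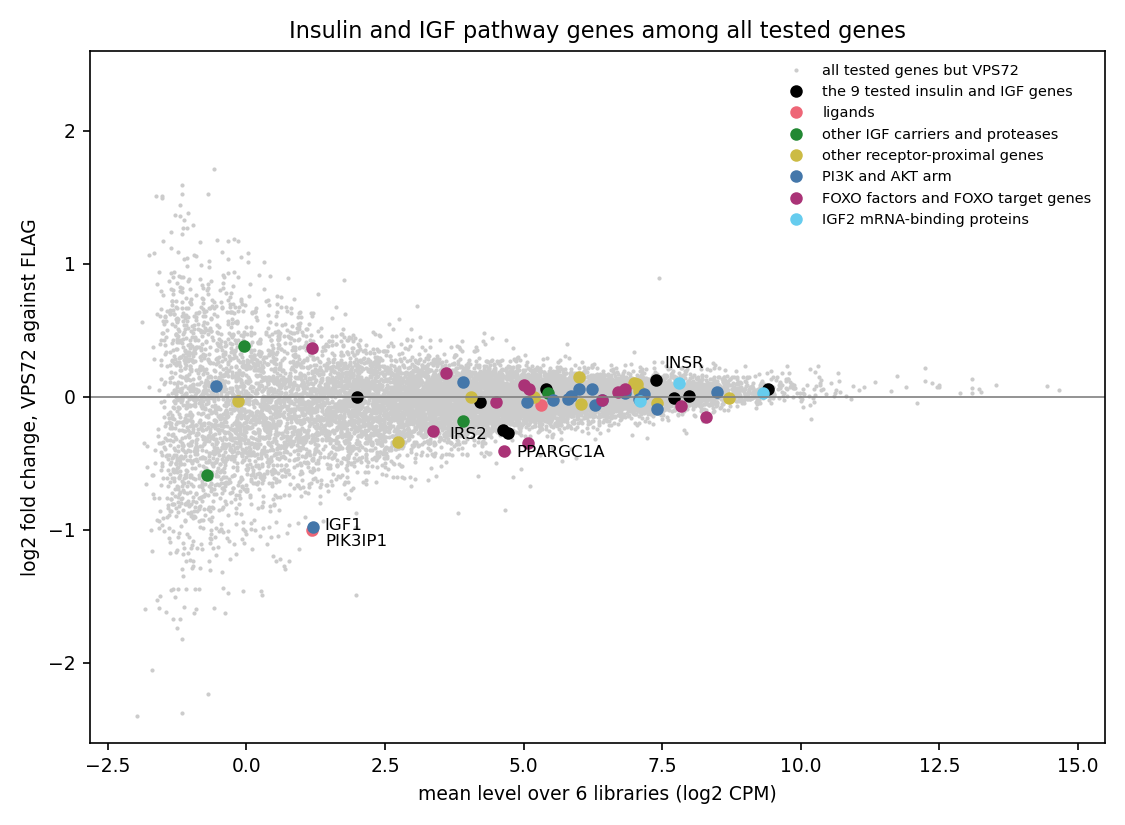
Log2 fold change of VPS72 against FLAG libraries (y axis) against mean level (x axis, log2 CPM) for all tested genes but VPS72 (grey) and for the 9 tested members (black) and the remaining pathway lists (colours). IRS2 and IGFBP3 lie low in the grey cloud and most other members near 0, with PPARGC1A at -0.40, IGF1 and PIK3IP1 (-0.98) at its lower edge.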

How the data were processed

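The authors deposited estimated counts per gene symbol, whole numbers and not normalized, for 6 libraries. STAR, RSEM, limma, hg19 and hg38 appear in the submitters' processing notes without role, and the sources used here do not say which build the table used. Per the labels, RNA came from RNAzol extraction and libraries from KAPA RNA HyperPrep. Groups came from the sample titles. Genes were filtered with filterByExpr (minimum count 10, minimum total 15), scaled by TMM and tested with edgeR 4.0.16 (quasi-likelihood, R 4.3.3). Adjustment was by Benjamini-Hochberg over 14253 genes, with a threshold of 0.05. The fit was also run on simulated counts, and the outcome is not given here. The common coefficient of variation was 7.24%. Libraries of a group differed by more than sampling noise (chi-square per degree of freedom 4.7 to 7.69). CPM use TMM-scaled totals. A standard error is the log2 fold change divided by the square root of F, and 95% intervals use 15.46 degrees of freedom. DESeq2 1.42.0 and limma 3.58.1 (voom) were alternatives. RefSeq and GENCODE 29 gave names, lengths, GC content and promoters; G6PC1 was found as G6PC. An estimating counter can split reads between similar or overlapping genes. Members, lists and tests were chosen with earlier results of these data known. Named genes were VPS72, the members, the ligands, of each list the genes past the threshold or else up to 4 with the smallest p, and the 3 genes most like the member of smallest p. Of these, 1 gene is not reported here.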

Additional observations from a re-analysis of the deposited data

How the results depend on the processing

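No member passed under any of the 17 alternatives, 16 planned and 1 (GC and length trend removed) chosen after seeing the data. By DESeq2, 4 of the 9 tested members, among them IRS2 and IGFBP3, had no adjusted p and so could not pass there. INSR, IGF2R, IRS2, PIK3R1 and IGFBP3 kept their direction in all 17 alternatives. Of the 33 named genes, 25 kept theirs in every alternative that gave them a value (16 for IGF1, IGFBP6 and PAPPA2, which the stricter filter removes). The count of genes past the threshold, 88, became 264 without a filter on low counts, 249 by DESeq2, 54 with the abundance trend removed, 235 after removing the GC and length trend and 25 to 100 when leaving out a replicate. Deviations of same-numbered replicates correlated at -0.05, 0.03 and 0.06 between the groups. FLAG replicates 1 and 3 both correlated best with VPS72 replicate 3, and FLAG replicate 2 with VPS72 replicate 1 (0.08). What a replicate number shares is not stated, and these values cannot decide whether the numbers pair the samples. A replicate block gave 32 genes and 0 of the pathway lists, PPARGC1A being lost. The split of 60 higher and 28 lower became 32 and 54 by library size only, which moved the median of all genes from -0.00 to -0.04, 44 and 32 by upper quartile scaling, 27 and 27 with the abundance trend removed and 165 and 70 after removing the GC and length trend. The 1 pathway gene past the threshold became 2 by library size only, by limma-voom and after removing the GC and length trend, 4 without a filter, 0 with the abundance trend removed and 0 to 1 when leaving out a replicate. The cause was not tested.

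Log2 fold changes near 0 changed sign, and the cause was not tested. IRS1 was -0.0229 by library size only and -0.0233 with the abundance trend removed. IGFBP1 was 0.00124 with DESeq2 size factors, 0.00251 without a filter, 0.00301 by DESeq2 and 0.0640 with the abundance trend removed. PAPPA was -0.00536 by library size only, and IGF2BP1 was -0.0199 with the abundance trend removed. By library size only PIK3R1 was 0.0267, AKT1 0.0242, PDPK1 -0.0896, NAP1L4 0.0354 and CTNNA1 0.0439. Leaving out a replicate gave -0.0469 to 0.0293 for IGF1R, -0.0316 to 0.0672 for IRS1, -0.163 to 0.212 for IGFBP1, -0.154 to 0.0769 for IGFBP4, -0.210 to 0.110 for IGF2, -0.0188 to 0.0770 for PAPPA and -0.0588 to 0.00750 for IGF2BP2. IGFBP1, IGF1 and PIK3IP1 rested on few counts, which limits their precision.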
